A study of Mus musculus with 7 samples.

Results

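An intron that stays in an RNA while its neighbours are spliced out is called retained, and 1458 such introns in 1202 genes are described here. They are the events of the retained intron type whose coordinates occur once in the table of each replicate number and are present in both, out of 11804 splicing events of 5 types chosen the same way. The tested libraries were 2 of KCl-treated and 2 of control wild-type cortical neurons, prepared from ICR mouse embryos at day 16 and treated on day 11 of culture. KCl depolarizes neurons; the KCl group received medium with 30% of a buffer holding 170 mM KCl, given as 50 mM KCl in the study's design, while the control group received the same mixture with 170 mM NaCl. Exposure lasted 10 min, the old medium was then put back, and RNA was extracted 24 h later, so the comparison asks which introns differ a day after a brief depolarization. Whether the 2 replicates of a group come from separate cultures is not stated in the labels, and the p-values then describe the spread of these 4 libraries, which may be technical. The series also has 3 H3K9me3 libraries, which were not used here.

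Splicing joins exons and releases the introns between them. Transcripts that keep an intron are often held in the nucleus, and those that are exported frequently meet a premature stop codon and are degraded by nonsense-mediated decay. Neurons are known to keep pools of transcripts with unspliced introns, some of which are spliced after activity, and genes for splicing factors such as the CLK kinases and SR proteins are well-known hosts of regulated introns. Introns can also carry small RNAs: snoRNAs, which guide modification of ribosomal RNA, are cut from the excised intron, and many microRNA hairpins lie in introns of protein-coding genes.

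Each event has reads of an inclusion form, taken here as the RNA that keeps the intron, and of a skipping form, in which it is spliced out. Inclusion reads as a percentage of the reads of both forms are called the retention share below. Members carried 247873 and 301780 reads in KCl replicates 1 and 2, against 262432 and 339337 in control replicates 1 and 2. The listed region holds the intron and the exon on each side: 185 region starts equal the start of a listed cassette exon and 0 equal the end of one, and 195 region ends equal the end of such an exon and 0 its start. Coordinates are those of the build mm10, counted from 1. The libraries stood apart in cell markers as well as in treatment. Summed over 5 measured of 10 neuron markers, levels were 333 and 1460 CPM, reads scaled by effective library size, in KCl, against 4650 and 4360 CPM in control, with KCl replicate 1 the lowest. Stmn2, a tubulin-binding protein of growing axons, led that sum, and no measured neuron marker was at 0. The sums of 6 of 8 oligodendrocyte markers were 1320 and 746 CPM in KCl, against 221 and 225 CPM in control, and those of 3 of 8 mesenchymal or vascular markers were 1910 and 1520 CPM in KCl, against 296 and 341 CPM in control. Astrocyte markers, 4 of 8 measured, summed to 948 and 681 CPM in KCl, against 484 and 459 CPM in control, and of 6 microglia markers 0 had a usable event. In bulk RNA, fewer cells of a type and less RNA per cell cannot be told apart, and the part of these markers in the results below was not tested.

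In 9 members the listed region, which includes the flanking exons, holds an annotated microRNA gene, and mature sequences of 13 microRNAs lie inside 7 of them. Those of the 4 hosts with most reads are shown, as these are the microRNAs whose surrounding region was measured best. All 7 printed RNAs lie on the strand of their host gene. Sequences and positions are from RefSeq (GRCm38.p6, the build mm10), and capitals mark the seed, bases 2 to 8, which pairs with target RNAs. Ddx5, an RNA helicase gene that takes part in splicing and microRNA processing, holds miR-3064 on chromosome 11, minus strand.
mmu-miR-3064-5p: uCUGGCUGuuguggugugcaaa (chr11:106782736-106782757)
mmu-miR-3064-3p: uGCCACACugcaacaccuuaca (chr11:106782695-106782716)
Srrt codes for ARS2, a protein that links the cap-binding complex to RNA processing, and holds miR-7036a on chromosome 5, minus strand.
mmu-miR-7036a-5p: aGCGGGGUucgguggggaagaga (chr5:137296661-137296683)
mmu-miR-7036a-3p: cCGUCCUCauccgcuccucccag (chr5:137296624-137296646)
Rpl13, a gene for a protein of the large ribosomal subunit, holds miR-7079 on chromosome 8, plus strand.
mmu-miR-7079-5p: aGGGCUGAggcagugaguccug (chr8:123104980-123105001)
mmu-miR-7079-3p: uGACUUCUguucucuuuccag (chr8:123105023-123105043)
The gene 5031439G07Rik holds miR-1249 on chromosome 15, minus strand.
mmu-miR-1249-3p: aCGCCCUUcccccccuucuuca (chr15:84951545-84951566)
The 13 mature RNAs have 13 different seeds, so no seed is shared among them.

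Retention ranged from nearly none to nearly complete. Among the 1205 introns with a mean of at least 20 reads and a read in every library, the median share was 31.2% and 30.4% in KCl, against 25.6% and 31.1% in control. Shares under 10% were found in 25.6% and 24.98% of them in KCl and in 29.5% and 23.2% in control, and shares over 90% in 15.3% and 15.3% in KCl and in 14.3% and 15.9% in control. Control replicate 1 was the low library in the median and at both quartiles, and the other 3 libraries lay close together. Other event types measured the same way had their own ranges: cassette exons, for example, had medians of 96.8% and 96.6% in KCl and 96.5% and 96.3% in control.

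The share went with the length of the listed region in every library, shown here for introns split into 3 groups by length, the shortest, the middle and the longest. In the shortest regions (222 to 467 bases) the median was 12.5% and 12.2% in KCl, against 11.1% and 13.2% in control. In the middle group (470 to 984 bases) it was 30.8% and 28.8% in KCl, against 24.7% and 30.1% in control. The longest regions (986 to 9041 bases) had 61.5% and 60.6% in KCl, against 51.0% and 61.5% in control. Spearman's rho between length and share was 0.45 and 0.46 in KCl and 0.41 and 0.45 in control over the same 1205 introns, a description across introns of the same libraries. A longer region can take more reads of the inclusion form, and which effective lengths the counting used is not stated by any label or header read here. With inclusion reads per kb of region set against skipping reads, an alternative chosen after seeing the data, the medians of the shortest regions were 28.7% and 28.1% in KCl and 25.1% and 30.0% in control, and those of the longest regions 45.3% and 47.7% in KCl and 37.3% and 48.1% in control. Shares are therefore compared below for the same intron between libraries, and levels of different introns are given only as read shares.

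**Figure D1:**
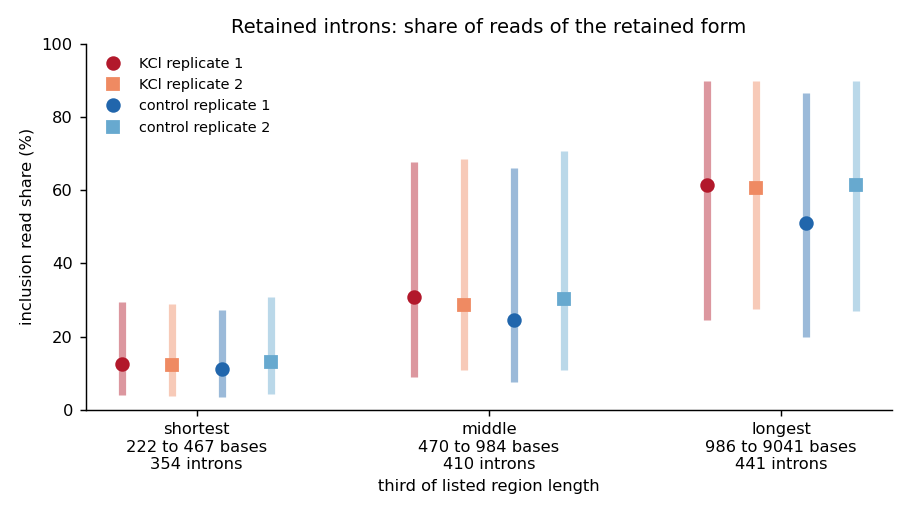
Inclusion read share (y axis, percent) of retained introns by listed region length, split into 3 groups (x axis); points are medians over introns in each of the 4 libraries and bars run from the lower to the upper quartile. Medians lie between 11.1% and 13.2% in the shortest regions and between 51.0% and 61.5% in the longest, with control replicate 1 lowest in each.

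Flanking exons could be placed for 7 introns, from cassette exons that share a border with the region. These introns were 73 to 937 bases long, with a median of 194 bases in regions with a median of 425 bases. The shortest was in Ndufv1, which codes for a subunit of respiratory complex I: an intron of 73 bases (chromosome 19, 4011273 to 4011345) in a region of 323 bases. It was retained in 0.36% and 1.25% in KCl, against 2.11% and 2.63% in control. In Becn1, a gene of autophagy, the intron was 513 bases long (chromosome 11, 101289926 to 101290438), with 56.7% and 31.5% in KCl, against 16.9% and 36.7% in control, so the groups overlapped. Adrm1, a ubiquitin receptor of the proteasome, had the longest placed intron, of 937 bases, with a mean share of 13.6% in KCl and 11.8% in control.

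No retained intron passed the test of KCl against control. Of 1392 introns whose retained and spliced forms each averaged 1 read or more, 0 passed edgeR's quasi-likelihood test after Benjamini-Hochberg adjustment over 10079 events of all types, where 0% passed as well, and the smallest adjusted p among the introns was 0.263. At an unadjusted p under 0.05 there were 55 introns, or 3.95%, against 9.2% of all events. Higher retention in KCl made up 28 of them (2.01%, against 4.23% of all events) and lower retention 27 (1.94%, against 4.97%). The count and its split by direction depended on single libraries. Without control replicate 1 it was 31 (2.23%, against 4.32% of all events), 8 higher and 23 lower, and without control replicate 2 it was 55 (3.99%, against 5.67%), 44 higher and 11 lower. Without KCl replicate 1 it was 28 (2.03%, against 4.34%), 16 higher and 12 lower. DESeq2 called 0 after adjustment and 20 at an unadjusted p under 0.05 (1.44%, against 5.89% of all events), and limma called 0 and 66 (4.74%, against 10.7%). The remaining 66 introns had too few reads of one form to be tested.

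The same introns can be set beside other event types under the same unadjusted limit. Cassette exons passed in 12.4% of 6170 tested, mutually exclusive exons in 6.79% of 545, alternative 3′ splice sites in 3.70% of 1243 and alternative 5′ splice sites in 3.57% of 729. No test of these differences was made. The median reads per event were 62.5 for retained introns and 79.5 for cassette exons, and the median standard errors of the log2 odds ratio were 0.93 and 1.16. By region length, 3.02% of the shortest, 4.51% of the middle and 4.32% of the longest introns passed.

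Shares of KCl and control did not overlap in 456 introns (32.8%), against 40.7% of all events. KCl lay above control in 243 and below it in 213. If the libraries differed only by random spread, 2 against 2 would not overlap with a probability of 0.33. The median share averaged 30.8% ± 0.58 in KCl and 28.3% ± 3.92 in control (SD, n = 2 each), a difference of 2.50 percentage points (exact permutation test, two-sided, p = 0.667, where 0.33 is the smallest value that 2 against 2 allows). That difference rests on control replicate 1: it was -0.27 points without that library and 5.27 without control replicate 2. Within replicate number 1 the medians differed by 5.68 points and within number 2 by -0.68 points. Intron by intron, the share was higher in KCl in 721 of 1205 introns in replicate 1 and in 526 in replicate 2. It was higher in both in 356, lower in both in 309 and opposite in 534. The median distance between 2 libraries of the same group was 5.69 points in KCl and 5.50 in control, and between KCl and control libraries it ran from 4.05 points (KCl replicate 2 against control replicate 2) to 6.13 (KCl replicate 1 against control replicate 2). The remaining 2 pairs lay at 5.56 and 5.70 points, close to the distances within groups.

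**Figure D2:**
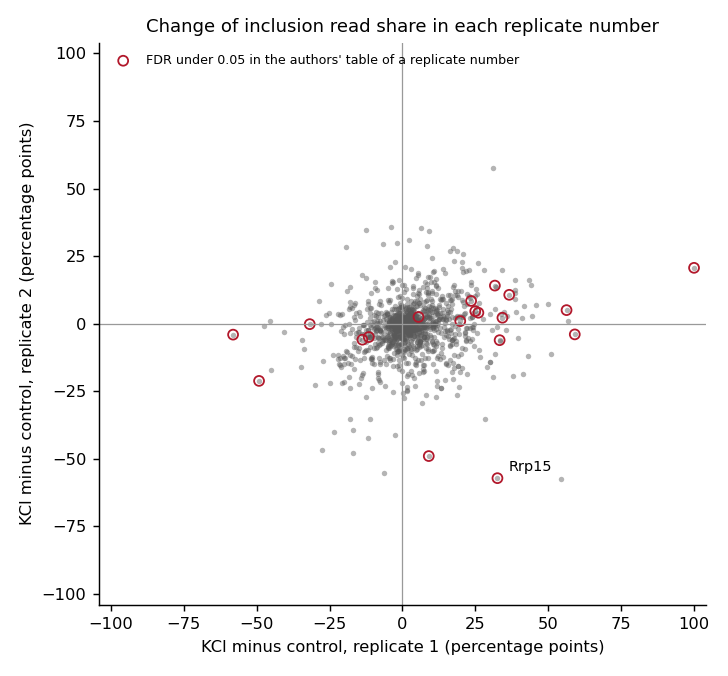
Each point is 1 of the 1205 introns with at least 20 reads on average; axes give the KCl minus control difference of the inclusion read share in replicate 1 (x) and replicate 2 (y), in percentage points, and rings mark introns with an FDR under 0.05 in the authors' table of a replicate number. Points crowd around 0, 534 lie in the quadrants of opposite direction, and Rrp15 stands at a higher share in replicate 1 and a lower one in replicate 2.

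The 10 introns with the smallest p among those with higher and non-overlapping shares in KCl came from genes of varied function, and none passed adjustment (edgeR, adjusted p from 0.263 to 0.452). Agtpbp1 codes for a carboxypeptidase that trims glutamates from tubulin tails and is needed for survival of Purkinje neurons. Its intron (region on chromosome 13, 59473688 to 59474712) had 7 of 58 and 19 of 76 reads in the retained form in KCl, against 2 of 158 and 12 of 223 in control. Those are shares of 12.1% and 25% in KCl, against 1.27% and 5.38% in control, a log2 odds ratio of 2.70 (SE 0.85; edgeR, adjusted p = 0.263). Both KCl libraries lay above both control libraries, as the choice of these introns required. The Wilson 95% interval of KCl replicate 1 (5.97% to 22.9%) overlapped that of control replicate 2 (3.10% to 9.17%). Intervals of shares cover counting error only, since PCR copies are not independent molecules. Both forms together stood at 26.2 and 29.2 CPM in KCl, against 75.4 and 78.8 CPM in control, and the reads of the spliced form were 51 and 57 in KCl, against 156 and 211 in control.

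Pclo, the active zone scaffold piccolo, has a listed region of 7433 bases (chromosome 5, 14674955 to 14682387). Retained reads were 12 of 12 and 15 of 48 in KCl, against 0 of 17 and 15 of 142 in control. The shares, 100% and 31.2% in KCl against 0% and 10.6% in control, did not overlap, but replicates of KCl lay far apart, and the 0 of 17 reads allows a share of up to 17.6%. In Baz2b, a bromodomain protein of chromatin (chromosome 2, 59920295 to 59922217), 42.9% and 77.6% were retained in KCl, against 11.8% and 20% in control. Atp6v1g2, a subunit of the vesicle proton pump in its brain form (chromosome 17, 35237117 to 35238767), had 51.7% and 29.1% in KCl, against 20.05% and 14.97% in control. Its region reaches the 3′ end of the gene.

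The other 6 stood at low shares or at a full one. Blmh, the protease bleomycin hydrolase, had 10.1% and 5.13% in KCl, against 0% of 91 reads and 0.86% in control, where 0 of 91 allows up to 3.30%. Tchp, a protein of centrioles and keratin filaments, had 26.5% and 15.6% in KCl, against 3.03% and 0% in control, where 0 of 23 reads allows up to 13.0%. Timeless, which protects replication forks, had 33.3% and 27.3% in KCl, against 0% of 8 and 0% of 11 reads in control, which allow up to 37.5% and 27.3%. These limits, each for 1 library, reach as high as the KCl shares. Dhx30, an RNA helicase of mitochondrial ribosome assembly, had 7.58% and 10.3% in KCl, against 2.42% and 0% in control (0 of 84 reads, up to 3.57%). The HEAT repeat gene Mroh1 had 9.30% and 5.08% in KCl, against 0% of 26 and 0% of 52 reads in control, which allow up to 11.5% and 5.77%. Adam11, a membrane protein of the ADAM family that lacks protease activity, had 100% of 68 and 100% of 49 reads in KCl, against 96.3% and 89.1% in control.

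The 10 introns with lower shares in KCl likewise did not pass (edgeR, adjusted p from 0.370 to 0.452). Gss codes for glutathione synthetase, the last enzyme of glutathione synthesis, and its region of 499 bases lies on chromosome 2 (155578289 to 155578787). Retained reads were 6 of 21 and 4 of 33 in KCl, against 18 of 32 and 27 of 46 in control. Shares of 28.6% and 12.1% in KCl stood below those of 56.2% and 58.7% in control, a log2 odds ratio of -2.50 (SE 0.92). Hirip3, which binds the histone chaperone HIRA (chromosome 7, 126862600 to 126862926), had 17.5% and 25% in KCl, against 66.7% and 46.2% in control. Pdlim7, an adaptor of the actin cytoskeleton (chromosome 13, 55507330 to 55507624), had 33.3% and 24.5% in KCl, against 56.8% and 64.5% in control. The regions of these 3 genes are under 500 bases long and held 21 to 62 reads in a library. In each, KCl lay below control in both libraries, as the choice of these introns required.

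Bicd2 and Cstf2 were long and well covered. The dynein adaptor gene Bicd2 (chromosome 13, 49383043 to 49387025) had 263 of 306 and 468 of 515 retained reads in KCl, against 659 of 676 and 845 of 882 in control. Its shares were 85.9% and 90.9% in KCl, against 97.5% and 95.8% in control (log2 odds ratio -1.90, SE 0.69). Cstf2, a factor that directs 3′ end cleavage of messenger RNA (chromosome X, 134069845 to 134073277), had 69.5% and 80.5% in KCl, against 89.5% and 93.1% in control. In both genes most reads were of the retained form in every library.

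Low shares in this direction were found in Slc25a11, the mitochondrial oxoglutarate carrier, at 1.16% and 1.41% in KCl against 8.14% and 8.54% in control, each from 71 to 86 reads. Its replicates lay close together, with SDs of 0.17 points in KCl and 0.28 points in control (n = 2 each). Integrin-linked kinase, Ilk, had 3.19% and 4.67% in KCl, against 11.1% and 25.5% in control. Lrtm2 had 0% of 39 and 0% of 34 reads in KCl, which allow up to 7.69% and 8.82%, against 15.2% and 3.03% in control. In the NF-kappaB inhibitor gene Tnfaip3 the shares were 0% and 17.4% in KCl, against 66.7% and 70.0% in control, but libraries held as few as 4 reads. Dlgap4, a scaffold of the postsynaptic density, was retained in 98.9% and 99.8% in KCl and in 100% and 100% in control, a difference carried by 5 skipping reads in all of KCl.

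**Figure D3:**
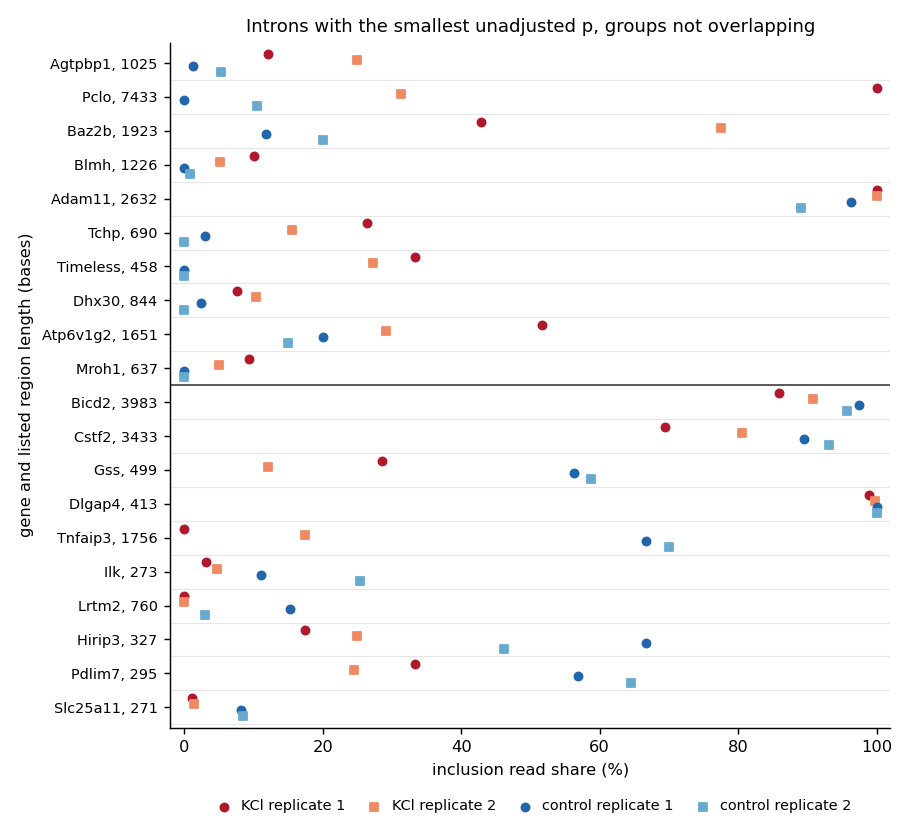
Inclusion read share (x axis, percent) in the 4 libraries for the 20 introns with the smallest unadjusted p and non-overlapping groups; rows give the gene and region length in bases, with the 10 of higher share in KCl above the line and the 10 of lower share below it. Spreads differ between introns. In Slc25a11 the replicates nearly coincide, on 1 retained read in each KCl library, while in Pclo the KCl libraries stand at 100% and 31.2%.

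Tests within a replicate number, as deposited, gave other calls. Each compares 1 KCl library with 1 control library, so its FDR holds no spread between replicate libraries. In the authors' deposited table of replicate 1, 18 introns had an FDR under 0.05 (against 2.9% of all events), and in that of replicate 2 there were 2 (against 1.29%). Of the 18, 13 had higher and 5 lower retention in KCl in replicate 1. In replicate 2, 15 of the 18 differed in the same direction, and 665 of all 1205 well-covered introns did so. Over all 18, the median gap regardless of direction was 32.2 points in replicate 1 and 4.99 points in replicate 2. The 18 were called on replicate 1, so a smaller gap in replicate 2 can follow from that choice alone. The smallest FDRs in replicate 1 belonged to Enpp5, a membrane protein of the nucleotide phosphodiesterase family, and Ensa, an inhibitor of phosphatase 2A (4.53e-12 and 3.69e-11 in the authors' deposited table). Enpp5 was retained in 79.1% and 77.7% in KCl, against 92.9% and 83.6% in control. Ensa was retained in 97.4% and 95.1% in KCl, against 91.9% and 92.6% in control. In both genes the groups did not overlap and the gap was wider in replicate 1. With all 4 libraries, edgeR gave an unadjusted p of 0.105 for Enpp5 and 0.0947 for Ensa.

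The gap in replicate 2 was smaller than in replicate 1 in Eno2, Dbn1 and Snph. These introns had an FDR under 0.05 in replicate 1 only, and a smaller gap in replicate 2 can follow from that choice alone. Eno2, the neuronal enolase of glycolysis, had 52.9% and 44.0% in KCl, against 16.3% and 33.3% in control. Drebrin, an actin-binding protein of dendritic spines encoded by Dbn1, had 76.3% and 35.0% in KCl, against 20.04% and 29.9% in control. Snph, which anchors mitochondria in axons, had 23.3% and 70.5% in KCl, against 81.4% and 74.5% in control. KCl replicate 1, the library with the lowest neuron marker sum, held only 38 reads for Dbn1 and 30 for Snph, where control replicate 1 held 554 and 156. In Mroh1 a second intron had 78.3% and 83.3% in KCl, against 19.2% and 87.3% in control, so that control replicate 1 alone stood apart. Apart from Rrp15, the genes shown from the authors' calls were chosen after their values were seen.

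Rrp15, which acts in ribosomal RNA processing, was the 1 intron with an FDR under 0.05 in the authors' deposited tables of both replicate numbers (0.000199 in replicate 1 and listed as 0 in replicate 2), and the directions were opposite. Its region (chromosome 1, 186737588 to 186739863) had 61 of 61 and 36 of 84 retained reads in KCl, against 60 of 89 and 108 of 108 in control. The shares were 100% and 42.9% in KCl, against 67.4% and 100% in control. With all 4 libraries together the log2 odds ratio was -1.25 (SE 1.64; edgeR, adjusted p = 0.938), and it turned to 6.21 without KCl replicate 2 and to 0.58 without control replicate 2.

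Genes for the splicing machinery carried introns across the whole range of retention. Tested were 4 members of CLK kinases, 4 of SR proteins, 9 of hnRNPs with other neuronal regulators and 12 of spliceosome genes. Of these, 0 reached an unadjusted p under 0.05 in edgeR, where 3.95% of all tested introns and 9.2% of all events did. Lists this small can hold 0 at such shares, so the 0 is not read as a result about these genes. The same holds for the counts of the gene lists and small RNA hosts below. The median shares of these 4 groups, over 4, 4, 9 and 10 members with 20 reads or more, were 61.0%, 78.2%, 33.6% and 76.9% in KCl, against 58.2%, 81.1%, 39.3% and 64.3% in control. CLK kinases phosphorylate SR proteins and are known to be controlled through retained introns of their own genes. Clk1 had a region of 371 bases at 34.4% and 23.2% in KCl, against 23.1% and 23.3% in control, and one of 1642 bases at 99.4% and 99.0% in KCl, against 98.6% and 99.8% in control. Clk4 had 8.97% and 20.5% in KCl, against 13.8% and 21.4% in control. Clk2 had 94.5% and 91.9% in KCl, against 88.2% and 97.9% in control. KCl and control overlapped in all 4 of these introns.

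SR proteins bind exons and recruit the spliceosome. Srsf6 had 91.8% and 83.7% in KCl, against 85.0% and 82.8% in control, while Srsf5 was almost fully spliced in all libraries, with 0% of 734 reads (up to 0.41%) and 0.24% in KCl, against 0.19% and 0.40% in control. Srrm1, a splicing coactivator, had 70.1% and 70.2% in KCl, against 81.4% and 75.1% in control, lower in KCl without overlap (log2 odds ratio -0.62, SE 0.64). Tra2a, another SR protein gene, had 80% and 92.6% in KCl, against 77.4% and 92.1% in control, and its libraries stood closer by replicate number than by treatment.

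The hnRNP proteins and neuronal splicing regulators had 9 members in 7 genes. Hnrnpl had 43.2% and 45.6% in KCl, against 59.0% and 54.3% in control, and Celf2, an RNA-binding protein of the CELF family, had 31.7% and 29.5% in KCl, against 37.1% and 41.6% in control. In both genes KCl lay below control, with log2 odds ratios of -0.71 (SE 0.62) and -0.57 (SE 0.62). The region of 491 bases in Celf3, another gene of that family, lay the other way, with 47.8% and 19.4% in KCl, against 13.5% and 17.2% in control (log2 odds ratio 1.29, SE 0.71; edgeR, unadjusted p = 0.0843, the smallest of the list). A second Celf3 region, of 532 bases and with more reads, lay below control without overlap. It had 25% and 28.0% in KCl, against 29.95% and 29.5% in control. The region of 497 bases in Hnrnph1 had 18.2% and 22.8% in KCl, against 16.02% and 21.9% in control. Ptbp1, the repressor of neuronal splicing that is itself shut down in neurons, was spliced nearly to completion, at 1.01% and 0.56% in KCl, against 4.08% and 0.96% in control.

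Spliceosome genes added 13 members in 11 genes. Ddx5, the host of miR-3064 above, had 2844 of 3303 and 3043 of 4064 retained reads in KCl, against 1398 of 1811 and 2132 of 3353 in control. Its shares of 86.1% and 74.9% in KCl and 77.2% and 63.6% in control overlapped between the groups, with KCl above control within each replicate number. Rbm25, a U1-associated factor, had 93.4% and 92.2% in KCl, against 92.1% and 89.7% in control. Sf3b1, which binds the branch point as part of the U2 particle, had 94.8% and 92.1% in KCl, against 91.8% and 92.7% in control. Rbm5, an apoptosis-linked splicing regulator, had a single skipping read in each KCl library and was not tested. The region of 351 bases in Prpf40b, a U1-associated protein, had 80% and 66.7% in KCl, against 62.1% and 54.4% in control, without overlap (log2 odds ratio 0.98, SE 0.83). Of the nonsense-mediated decay factors only Rbm8a, a core part of the exon junction complex, had a member: 0% of 310 and 0% of 297 reads in KCl, which allow up to 0.97% and 1.01%, against 0.84% and 0.35% in control, and it had too few retained reads to be tested.

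**Figure D4:**
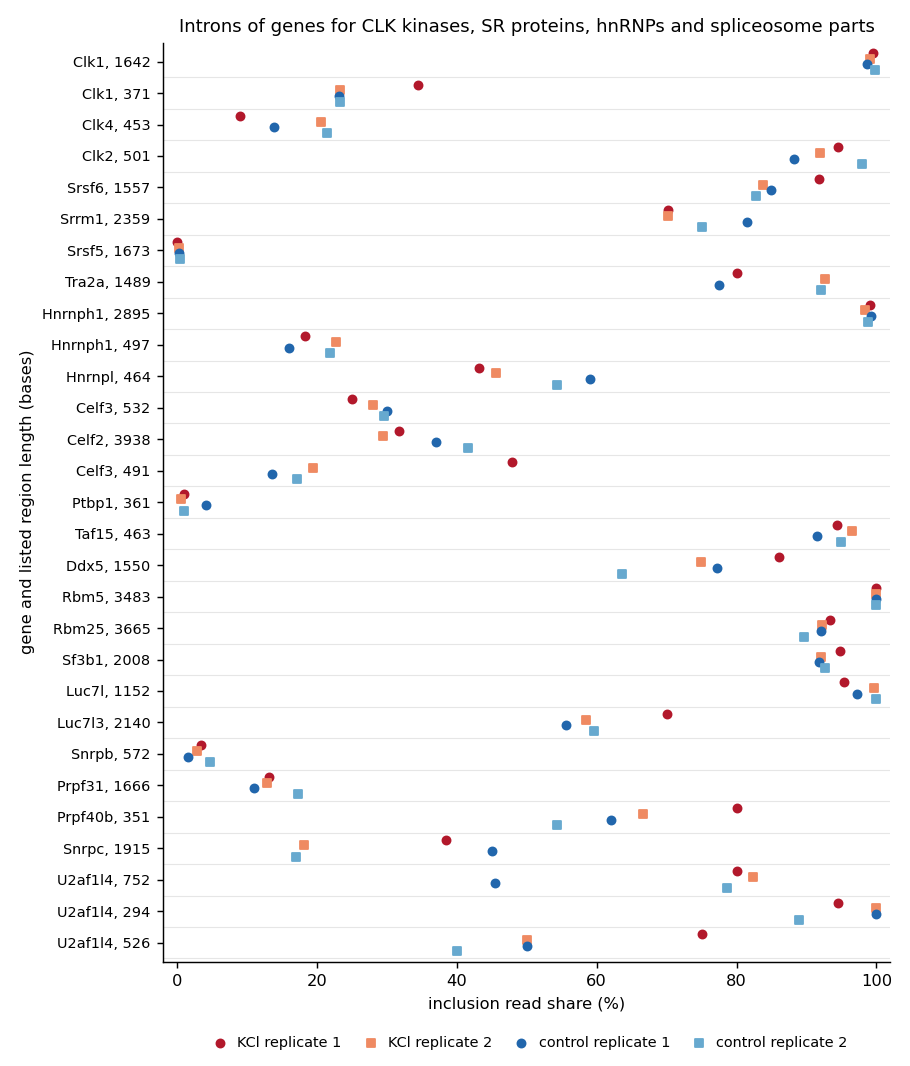
Inclusion read share (x axis, percent) in the 4 libraries for the introns of CLK kinases, SR proteins, hnRNPs with other neuronal regulators (1 intron not shown), and spliceosome genes, in that order from the top; rows give the gene and region length in bases. Introns spread from near 0% in Srsf5 to near 100% in Rbm5, and in most rows the 4 libraries lie close together next to that range.

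Synaptic genes had 7 members, of which 1 was higher (Pclo) and 1 lower (Dlgap4) in KCl at an unadjusted p under 0.05. That limit was reached by 3.95% of all tested introns and 9.2% of all events, and 0 of the 7 members passed adjustment. Over the 6 with 20 reads or more the median share was 72.3% in KCl and 41.1% in control, each midway between Pclo (mean share 65.6% in KCl and 5.28% in control) and Camk2b (78.9% in KCl and 76.9% in control). On the list of presynaptic genes with introns known to be controlled by Ptbp1, which includes Stx1a and Vamp2, 0 genes had a member. The scaffold gene Dlg4, which codes for PSD-95, was almost fully spliced, at 1.30% and 1.44% in KCl, against 1.08% and 0.32% in control. Dlg3, a scaffold of the same family, had 5.56% and 3.41% in KCl, against 0.87% and 3.42% in control. KCl replicate 1 held few reads for some of the list, 12 for Pclo and 9 for the kinase gene Camk2b.

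Ion channel genes had 10 members in 6 genes, with a median share of 49.3% in KCl and 37.7% in control over the 8 with 20 reads or more, and 0 of the 9 tested reached an unadjusted p under 0.05. Clcn3, which codes for a chloride-proton exchanger of endosomes, had 42.6% and 53.0% in KCl, against 23.6% and 40.9% in control, higher in KCl without overlap (log2 odds ratio 0.97, SE 0.65; edgeR, unadjusted p = 0.152). Clcn2, a chloride channel gene, had 15.4% and 29.3% in KCl, against 33.3% and 52.9% in control, in its region of 580 bases. Its region of 368 bases had 7.69% and 24.2% in KCl, against 4.17% and 21.4% in control, with overlap.

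Activity-regulated genes had 6 members in 5 genes. Their median share over the 5 with 20 reads or more was 51.1% in KCl and 27.2% in control, and both medians are the values of the single gene Dusp1, so they describe no shift of the list. Here 0 of the 5 tested reached an unadjusted p under 0.05. Dusp1, the phosphatase that switches off MAP kinases after a stimulus, came nearest. Its region on chromosome 17 (26506985 to 26507719) had 39 of 72 and 35 of 73 retained reads in KCl, against 10 of 38 and 14 of 50 in control. The shares of 54.2% and 47.9% in KCl lay above those of 26.3% and 28.0% in control, with a log2 odds ratio of 1.47 (SE 0.77; edgeR, unadjusted p = 0.0708). Gadd45g, a stress and growth arrest gene, had 16.9% and 18.9% in KCl, against 10.3% and 19.1% in control. Crtc1, a CREB coactivator that moves to the nucleus on activity, had 66.3% and 48.9% in KCl, against 55.3% and 45.6% in control. Rgs2, a regulator of G protein signalling, had 0% of 20 reads (up to 15.0%) and 8.70% in KCl, against 11.1% and 12.0% in control, and Fos held 4 to 29 reads in a library, too few for its shares to be compared.

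Ribosomal protein genes were spliced almost to completion, with a median share of 2.38% in KCl and 2.36% in control over 15 members in 12 genes, and 0 of them reached an unadjusted p under 0.05 in edgeR. The lowest shares were in Rpl7, with 0.21% and 0.071% in KCl, against 0.10% and 0% of 2005 reads (up to 0.15%) in control, and in Rps2, with 0.23% and 0.24% in KCl, against 0.14% and 0.15% in control. Rpl12 and 1 region of Rpl31 stood apart. Rpl12 had 98.2% and 100% in KCl, against 95.9% and 98.2% in control, and the Rpl31 region of 327 bases had 39.8% and 58.8% in KCl, against 71.6% and 59.0% in control. Genes of mitochondrial respiration had 7 members with medians of 4.57% in KCl and 3.12% in control over the 6 with 20 reads or more, and 0 at an unadjusted p under 0.05. Among them Uqcrq, a subunit of respiratory complex III, was mostly retained, with 94.3% and 94.3% in KCl, against 96.5% and 96.6% in control. Many ribosomal protein genes have processed pseudogenes of near-identical sequence, and how the authors' counting assigned such reads is not stated in the labels or headers.

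Small RNA hosts followed no common level of retention. In 15 members the listed region holds a snoRNA gene, 14 of them with at least 20 reads on average, and their median share was 20.6% in KCl and 15.5% in control. Snora81 lies in a listed region of the translation factor gene Eif4a2 (chromosome 16, 23110580 to 23111263), which had 79 of 539 and 135 of 414 retained reads in KCl, against 49 of 788 and 142 of 510 in control. The shares of 14.7% and 32.6% in KCl and 6.22% and 27.8% in control differed more between replicate numbers than between treatments. The listed region of Gnb2l1, which codes for the ribosomal scaffold RACK1, holds Snord96a and had 9.80% and 7.01% in KCl, against 9.83% and 10.0% in control. The long noncoding host genes with 3 members had a median share of 93.0% in KCl and 94.2% in control and 0 at an unadjusted p under 0.05. Snhg17 had 95.4% and 97.3% in KCl, against 95.3% and 93.0% in control, and Gas5 had 92.4% and 93.5% in KCl, against 97.1% and 94.3% in control. Snhg1 was lower, with 23.5% and 31.8% in KCl, against 35.5% and 23.5% in control. The region with Snord1a in 1810032O08Rik was the 1 snoRNA host at an unadjusted p under 0.05 (edgeR, 0.0346). It had 94.3% and 100% in KCl, against 72.0% and 88.9% in control, from 18 to 38 reads a library.

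Members whose listed region holds a microRNA gene had a median share of 31.8% in KCl and 27.3% in control over 8 well-covered ones. Of the 9, 0 reached an unadjusted p under 0.05. Srrt, with miR-7036a, had 34.3% and 30.5% in KCl, against 26.7% and 28.9% in control, higher in KCl without overlap (log2 odds ratio 0.31, SE 0.61). The region of Rpl13 with miR-7079, of 1347 bases, had 9.31% and 19.7% in KCl, against 13.1% and 27.6% in control, lower in KCl within each replicate number. The region of 5031439G07Rik with miR-1249 had 34.8% and 27.6% in KCl, against 28.0% and 25.5% in control, with overlap. Rab4b, a GTPase of recycling endosomes whose listed region holds miR-3101, had 20.5% and 39.1% in KCl, against 17.7% and 18.8% in control.

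**Figure D5:**
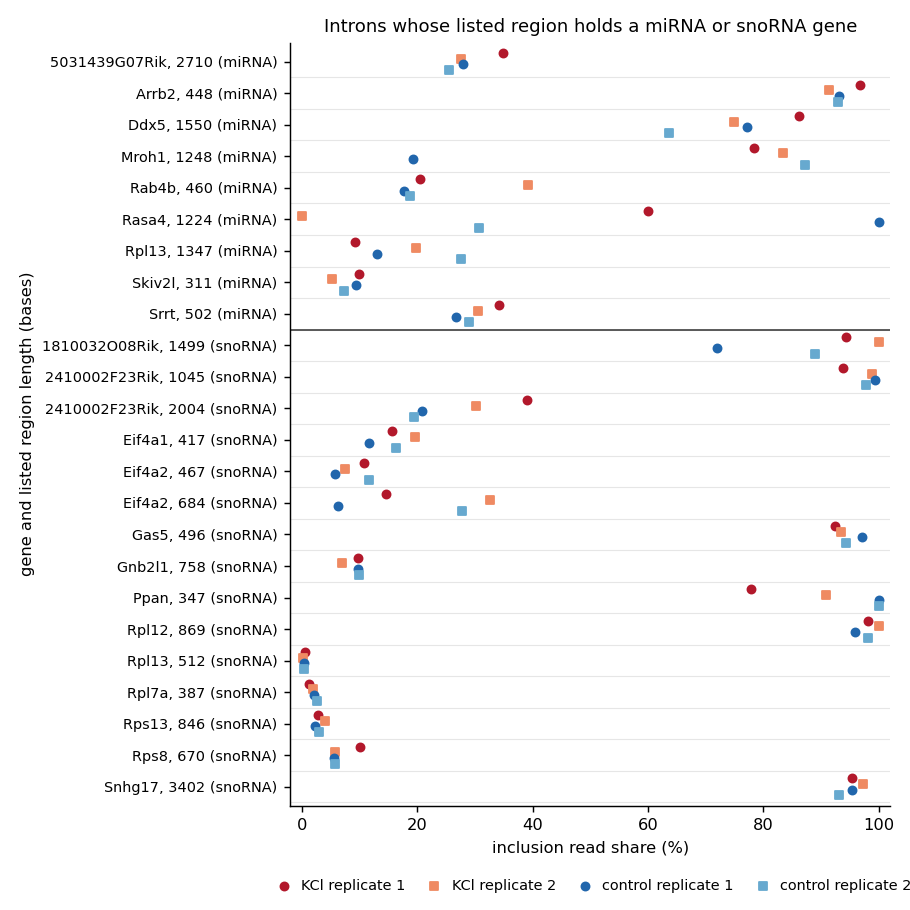
Inclusion read share (x axis, percent) in the 4 libraries for introns whose listed region holds a microRNA gene (above the line) or a snoRNA gene (below it); rows give the gene, region length in bases and kind of small RNA. Hosts range from Rpl13 with Snord68, under 1%, to Rpl12 with Snora65, over 95%, and Rasa4, with at most 13 reads in a library, scatters over the whole axis.

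The introns most and least retained in control stood at the same ends in KCl. With at least 100 reads on average, the 10 highest in control had shares of 96.6% to 100% in KCl and 99.7% to 100% in control. They included Dnmt3a, a de novo DNA methyltransferase, with a region of 6838 bases that reaches the 3′ end of the gene and 0 and 2 skipping reads in KCl, against 1 and 5 in control. Txn2, the mitochondrial thioredoxin, had 6 and 5 skipping reads in KCl, against 1 and 0 in control. The focal adhesion gene Zyx had 96.6% and 99.7% in KCl, against 100% and 100% in control. The 10 lowest in control had 0.033% to 1.20% in KCl and 0% to 0.58% in control. They included both regions of Eef1a1, the elongation factor of translation, at 0.033% to 0.15% in KCl and 0.087% to 0.18% in control, and the chaperone gene Hspa8, at 0.25% and 0.31% in KCl, against 0.21% and 0.086% in control. Tspan7, a tetraspanin, was the long one among them, with a region of 6470 bases at 0.72% and 0.41% in KCl, against 0.48% and 0% of 1996 reads (up to 0.15%) in control.

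The 5 shortest regions, of 222 to 239 bases, were in Ppdpf, Map4k2, Dvl1, Carkd and Rhot2, and all but Ppdpf had under 20 reads on average. Carkd, an enzyme that repairs damaged NAD(P)H, had 7.69% and 20% in KCl, against 61.5% and 44.4% in control (edgeR, unadjusted p = 0.0438), from 9 to 13 reads. Of the 5 longest, Hace1, a ubiquitin ligase gene with a region of 9041 bases, had 91.3% and 97.3% in KCl, against 83.2% and 98.7% in control, and Fam53a had 79.3% and 72.1% in KCl, against 72.0% and 77.0% in control. Synm, an intermediate filament gene, had 77.9% and 70.8% in KCl, against 71.8% and 77.7% in control. In these 3 long introns the groups overlapped.

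Introns of the same gene differed widely from each other in some genes and little in others. Of the 1202 genes, 998 had 1 member, 163 had 2 and 41 had 3 or more. In the 41, the distance between the lowest and the highest share of a gene had a median of 34.0 points in KCl and 34.8 points in control. No read minimum was set here, and a region of Map4k2 held only 2 to 7 reads in a library. Across the 1205 well-covered introns of all genes the quartiles were 9.62% and 72.05% in KCl replicate 1. The distances were not compared with those between introns of different genes. Fastk, whose protein acts in mitochondrial RNA metabolism, showed the contrast: regions of 296 and 472 bases had mean shares of 8.63% and 15.9% in KCl, against 7.27% and 12.7% in control, while the region of 501 bases had 99.1% and 98.6% in KCl, against 98.5% and 98.8% in control. Mroh1 had the most members, 5, with mean shares from 7.19% to 85.4% in KCl and from 0% to 66.1% in control. At the other end Zfp687, a zinc finger gene, had 3 introns between 4.90% and 5.41% in KCl and between 1.04% and 6.14% in control. Members of 1 gene share its RNA and some share sequence, since 108 of the 1458 regions overlap another, so they are not independent. Among the 134 introns of these genes 3 reached an unadjusted p under 0.05, where 3.95% of the tested introns and 9.2% of all events did.

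Levels of the regions were tested beside the shares. For the reads of both forms together, 0 of 1458 regions passed edgeR's test after adjustment (smallest adjusted p 0.410); 123 (8.44%) had an unadjusted p under 0.05, 48 higher and 75 lower in KCl, against 10.9% of all events. For the inclusion form alone 0 of 1432 passed, and 90 (6.28%) had an unadjusted p under 0.05, 42 higher and 48 lower in KCl, against 10.9% of all events. DESeq2 called 5 levels (0.46%, against 0.82% of all events) and 6 inclusion forms (1.19%, against 1.52%). Without KCl replicate 2, edgeR called 41 levels (2.81%, against 3.67%) and 25 inclusion forms (against 3.70%), and without control replicate 2 it called 8 levels (0.55%, against 0.68%) and 3 inclusion forms (against 0.60%). Among the 5 regions with most reads were those of Ywhag and Gpm6b. Ywhag, a 14-3-3 signalling adaptor of neurons, had 2608 and 5111 CPM in KCl, against 10890 and 10880 CPM in control (log2 change -1.50, SE 0.48). In Ywhag KCl lay below control without overlap, as the neuron marker sums did, while the shares were 99.88% to 99.97% in all libraries. Gpm6b, a myelin and neuronal membrane glycoprotein, had 5403 and 6080 CPM in KCl, against 2276 and 3983 CPM in control, at shares of 98.4% to 99.0% in all libraries. Of the 55 introns at an unadjusted p under 0.05 for their share, 9 also had one for their level. These 9 are 0.65% of the 1392 tested for both. That joint rate cannot be set beside the 8.44% of all regions that had one for their level alone. No such joint count was made over all events, so the 9 are not read as more or fewer than usual.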

How the data were processed

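Total RNA libraries of KCl-treated and control neurons (2 each) were used. Per the file headers, the authors deposited for each library a table of splicing events with raw counts of inclusion and skipping reads, and p-values and an FDR that compare the KCl with the control library of the same replicate number. The submitters' processing notes give the build mm10 and list TopHat2, MACS2, BWA 0.7.12 and CASAVA 1.7, without saying which step used which; the program that counted the events is not named there. In the table of control replicate 1, 2 columns repeat KCl counts and were not used. Gene symbols that a spreadsheet had turned into dates were restored from their gene IDs for 2 retained intron rows.

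Members were retained intron rows with coordinates unique in both tables (1856 and 1946 rows, of which 1565 and 1634 were unique). Symbols matched a RefSeq gene (GRCm38.p6) for 1453, of which 1204 had a strand. The members, gene lists and tests were chosen with earlier results of these data known. For splicing, edgeR's quasi-likelihood test (edgeR 4.0.16 in R 4.3.3) was fitted to inclusion and skipping counts together, its terms being each library, the form, and KCl within the form, over 10079 events of all types and with Benjamini-Hochberg adjustment at 0.05. Levels were tested with edgeR and TMM scaling over 11804 events, and over 11556 for the inclusion form. DESeq2 1.42.0, limma 3.58.1 (pseudocount 0.5), other read minimums, summed duplicates, a replicate block and each library left out served as alternatives. Scripts were tested on simulated data. Python 3.11.15 and scipy 1.17.1 computed shares, exact permutation tests and Wilson intervals (95%), and a share of 0 has as its upper limit 3 counts of the total. Named in the text were the 10 introns per direction with the smallest p and non-overlapping groups, those with the authors' FDR under 0.05 in both tables, the 10 highest and 10 lowest in control, up to 4 per gene list by reads, the 5 shortest, 5 longest and 5 with most reads, and genes with 3 or more members. Others were chosen after their values were seen. Results of some genes that this rule names are not reported here.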

Additional observations from a re-analysis of the deposited data

How the results depend on the processing

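The count of 0 introns called by edgeR was also found with DESeq2, limma, no read minimum, a mean of 5 reads of each form, reads of both forms in every library (an alternative chosen after seeing the data), summed duplicate coordinates and each library left out. The replicate number was not taken as a pairing. The labels do not say what libraries of equal number share, although the deposited tests compare within a number. There are 2 pairs, whose deviations correlated at 0.28 in the splicing of all events. In retained introns they correlated at 0.34 in the splicing and 0.60 in the levels. With a replicate block 3 introns were called (0.22%, against 1.66% of all events), Agtpbp1 (adjusted p 0.0404), Pclo (0.0277) and R3hdm1 (0.0310, with 74.3% and 30.4% in KCl, against 30.9% and 14.0% in control), 66 had an unadjusted p under 0.05 (4.74%, against 9.22%), and 114 levels (7.82%, against 11.2%) and 99 inclusion forms (6.91%, against 14.2%) were called, where edgeR without the block called 0 of each. The 55 introns at an unadjusted p under 0.05 (3.95%, against 9.2% of all events) became 20 with DESeq2 (1.44%, against 5.89%). The count was 28 to 55 with 1 library left out. With a mean of 5 reads of each form it was 34, but only 893 introns were then tested. Those 34 are 3.81% of the 893, close to the main share, against 12.2% of all events. Calls of levels numbered 5 with DESeq2 and 0 to 41 with 1 library left out, and calls of inclusion forms 6 and 0 to 25. A library that stands alone in its group was assumed to vary like the other group. The difference of 2.50 points in the median share was -2.49 with pooled reads and -0.27 to 5.27 with 1 library left out, below 0 without control replicate 1. Over other read minimums it was 0.98 to 3.47, and 2.79 with inclusion reads per kb. The gap between the longest and the shortest regions, 46.4 points, was 59.3 points at 100 reads and 16.6 points per kb of region. For Rrp15 the log2 odds ratio ran from -7.97 to 6.21 with 1 library left out, and was 0.58 without control replicate 2. Among values of named introns under alternatives, 205 kept direction and side of the threshold, 2 passed it (the block values above) and 2 reversed (Rrp15). Apart from Rrp15, these introns were chosen for shares that did not overlap between the groups. Their kept direction was therefore largely fixed by that choice and is no measure of stability. The cause of these shifts was not tested. Depth limits the shares most in introns outside the 1205 with 20 reads or more on average.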

Other observations

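Some values belong to no comparison above. The region of Wdr1, an actin disassembly factor, holds a snRNA gene and had 8.50% and 12.2% in KCl, against 6.19% and 9.12% in control. That of Ccz1, part of a GTPase regulator of endosomes, also holds one and had 6.36% and 6.41% in KCl, against 2.06% and 21.3% in control. The 60 well-covered introns whose region reaches the annotated 3′ end of the gene had median shares of 49.9% and 54.5% in KCl, against 43.7% and 58.0% in control. The 925 whose region lies inside the gene had 30.2% and 28.6% in KCl, against 24.7% and 30.2% in control. Host genes were protein-coding in 1186 cases and long noncoding in 12.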
